A study of Mus musculus with 2 samples.

Results

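The genes described are the transcripts of the unfolded protein response and the integrated stress response, measured in RAW 264.7 cells, a mouse macrophage-like tumour line. Members were the probe sets whose single gene symbol in the platform annotation was 1 of 44 listed genes. Of these genes 43 were found, with 83 probe sets, among 12393 genes in all, and Hspa13 was not analysed here. They fall into an ATF4 arm of 24 genes and an endoplasmic reticulum (ER) arm, which had 19 genes on the arrays. The study compared cells given IFN-gamma (1000 U/ml) with cells given IFN-gamma (1000 U/ml) and adenosine (300 uM), a purine nucleoside sensed by receptors on the cell surface. Both groups were harvested at 4 h after fresh DMEM, and both carried IFN-gamma, so the effect of IFN-gamma itself was not measured here. Each group was 1 Affymetrix array hybridized with RNA pooled from 2 experiments, so no value has a replicate error and no comparison could be tested.

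The integrated stress response begins with kinases that phosphorylate the translation factor eIF2alpha, which lowers overall protein synthesis while favouring translation of the transcription factor ATF4. ATF4 and its partners then switch on genes for amino acid supply, redox balance and feedback, and under lasting stress the factor CHOP, encoded by Ddit3. Misfolded protein in the ER is sensed by PERK, which is such an eIF2alpha kinase, and by IRE1 and ATF6, which act through XBP1 and cleaved ATF6 to raise chaperones and the machinery that degrades misfolded proteins. Macrophages use parts of this network when they make large amounts of secreted protein.

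The adenosine array was dimmer throughout, with a median deposited intensity of 15.2 against 45.9 over 22626 gene probe sets. The log2 ratio of adenosine with IFN-gamma over IFN-gamma alone was therefore centred by removing its median of -1.50, and adenosine signals below are the deposited intensities multiplied by 2.82. The cause of the dimmer array was not tested. A signal of 44.0, the 50th percentile of scaled signals, served as a floor, below which a signal was raised to it and the fold is given as "at least". After centring, the 6818 measured genes had a median log2 ratio of -0.08. Scatter between the 2 brightest probe sets of a gene was expressed per probe set, as an SD of 0.52 on the log2 scale. This SD ran from 0.56 in the dimmest 25% of those genes to 0.42 in the brightest 25%. A difference between 2 probe sets of a gene has a larger SD. The value is no guide to ratios with a signal raised to the floor, and variation among cultures or arrays is not part of it. Ratios of 3′ to 5′ signal for Actb and Gapdh lay between 0.691 and 1.19 on both arrays. All 7 macrophage markers found were measured (signals from 253.7 to 13361 over both arrays), and all 13 markers of other cell types found were below the floor, at 11.6 or less. In bulk RNA of this kind, fewer cells making a transcript and less transcript per cell cannot be told apart.

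The genes are described by role. Of the 11 factors and regulators of the ATF4 arm, 6 were at least 2-fold lower with adenosine (Chac1, Ddit3, Trib3, Atf4, Ppp1r15a and Atf3) and 1, Ddit4, was at least 2-fold higher. With the floor at the 67th percentile instead, 2 of 10 measured (Atf4 and Atf3) were lower, beside 6.48% of the 5062 genes then measured. None of the 12 measured ER chaperones and folding factors lay 2-fold apart in either direction by its brightest probe set. Over all measured genes, 10.1% were lower and 4.52% higher by this threshold. Over the whole ATF4 arm, 6 of 23 measured genes were lower and 2 higher, and over the ER arm 2 of 19 were lower and 0 higher. The counts lie close to the threshold for several members: Atf3, Ppp1r15a, Atf4 and Xbp1 had log2 ratios of -1.02, -1.04, -1.10 and -1.11, and Atf5, Cebpb and Ern1 stood just short of 2-fold higher at 0.99, 0.94 and 0.92. At a looser threshold of 1.5-fold, 9 members of the ATF4 arm were lower (21.8% of all measured genes were) and 4 higher (12.9%). At 3-fold, 1 was lower (2.96%) and 2 were higher (0.983%). The counts depend on the scaling. No called member changed sign, but for the lower ones the deposited values and spiked-in scaling only move ratios further down. In the values as deposited, 19 of 23 ATF4-arm genes and 17 of 19 ER-arm genes were at least 2-fold lower, beside 78.8% of all measured genes. Quantile scaling gave 4 lower and 3 higher ATF4-arm genes, beside 8.32% and 5.83% of all genes. Loess scaling gave 5 and 3 (12.5% and 4.13%), trimmed mean scaling 4 and 4 (8.78% and 5.40%) and spiked-in scaling 16 and 1 (50.7% and 0.473%).

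**Figure D1:**
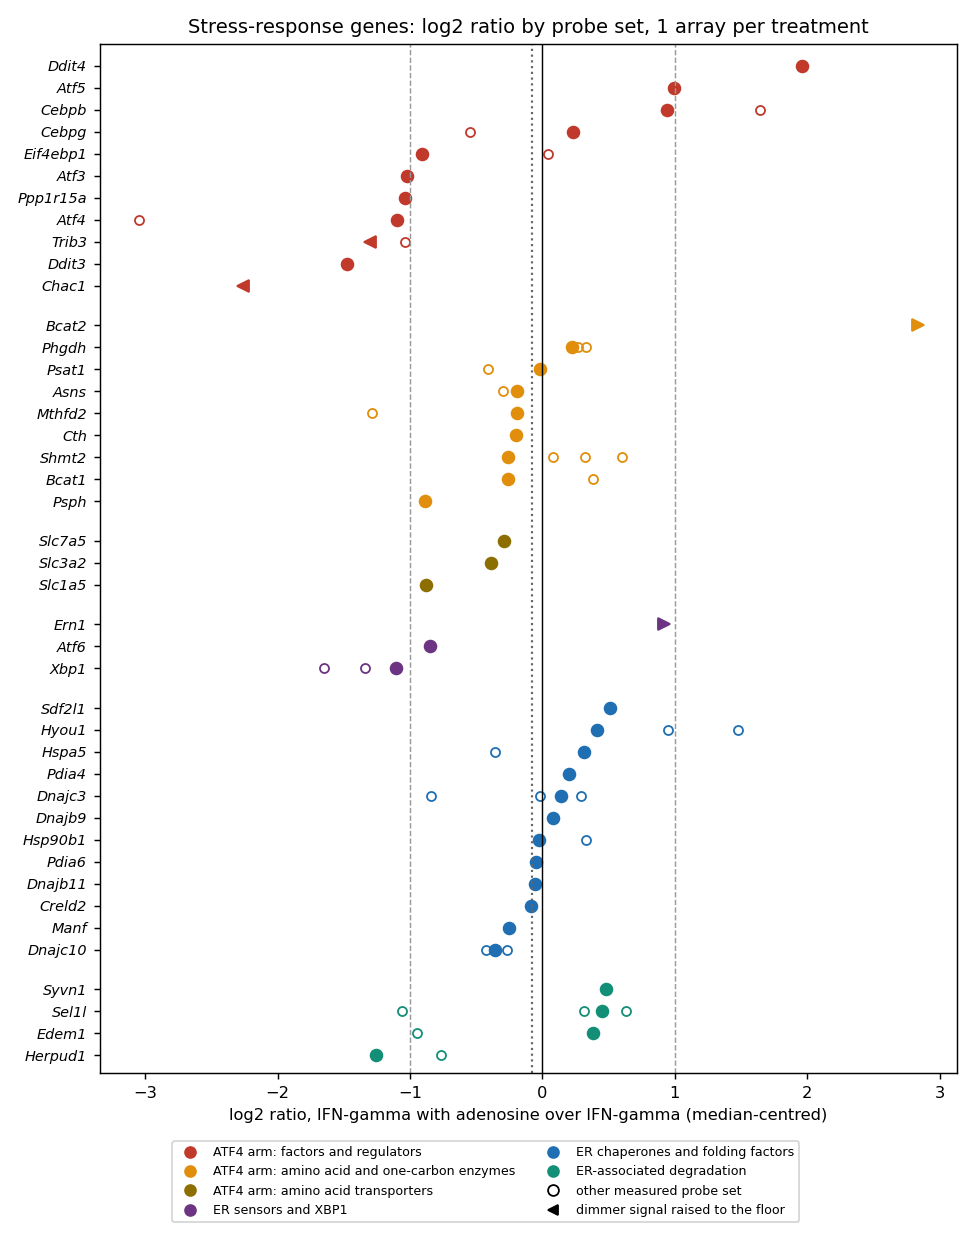
Log2 ratio of IFN-gamma with adenosine over IFN-gamma (x axis, median-centred) for the 42 measured members (rows), grouped by role; filled symbols are the brightest probe set of a gene, open circles its other measured probe sets, triangles mark genes whose dimmer signal was raised to the floor, dashed lines are 2-fold and the dotted line is the median of all measured genes, -0.08. The 12 chaperones lie between -0.36 and 0.51 by their brightest probe sets, while 6 of 11 ATF4-arm factors and regulators lie at or beyond 2-fold lower.

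Chac1 encodes an enzyme that breaks down glutathione and is among the best known ATF4 targets. Its signal was 211 on the IFN-gamma array and 26.8, below the floor, on the adenosine array. Chac1 was thus at least 4.79-fold lower, on its only probe set. With the floor at the 67th percentile its log2 ratio was -0.35. Atf3, a stress-induced repressor and activator that ATF4 switches on, had signals of 1071 and 529, a log2 ratio of -1.02. Both promoters carry a match to the C/EBP-ATF response element, the sequence bound by ATF4 paired with a C/EBP protein, and they are shown for that reason, from 250 bases upstream to the base before the annotated start (RefSeq, read 5′ to 3′ along the gene). Capitals mark the fixed letters of the match, which lies on the opposite strand in both.

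Chac1 promoter (GRCm38.p6, chr2:119350992-119351241, plus strand): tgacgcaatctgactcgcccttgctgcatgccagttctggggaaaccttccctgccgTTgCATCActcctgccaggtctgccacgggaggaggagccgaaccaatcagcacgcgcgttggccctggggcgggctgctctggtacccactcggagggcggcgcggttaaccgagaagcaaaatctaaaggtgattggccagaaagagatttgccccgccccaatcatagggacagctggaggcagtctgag
Atf3 promoter (GRCm38.p6, chr1:191183334-191183583, minus strand): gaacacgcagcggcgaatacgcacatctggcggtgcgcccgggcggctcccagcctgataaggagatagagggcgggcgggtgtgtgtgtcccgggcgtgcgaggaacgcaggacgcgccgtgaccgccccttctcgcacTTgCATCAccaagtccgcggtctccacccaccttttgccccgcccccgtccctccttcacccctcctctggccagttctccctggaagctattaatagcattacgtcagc

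Trib3 encodes a pseudokinase that dampens ATF4 and AKT signalling. Its brighter probe set read 108 with IFN-gamma and 37.5 with adenosine, at least 2.45-fold lower, and the other read 90.4 and 21.4, at least 2.05-fold lower. Both adenosine signals were below the floor. A match to the same element lies just inside the transcribed part of Trib3, from base 15 to base 22 after the start. With 5 flanking bases on each side and in the orientation of the motif, the 5 matches among members, 4 of them in the ATF4 arm and 1 in the ER arm (Herpud1), read as follows. They are shown so that the matched letters can be compared between genes.

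Chac1, 193 bases upstream: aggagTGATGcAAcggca
Atf3, 110 bases upstream: cttggTGATGcAAgtgcg
Herpud1, 112 bases upstream: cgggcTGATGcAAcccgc
Asns, 23 bases upstream: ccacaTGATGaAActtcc
Trib3, from base 15 of the transcript: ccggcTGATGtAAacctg

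The motif searched was TGATGNAA on both strands of a window of 300 bases, 250 before and 50 after each annotated start. It was found in 4 of 20 ATF4-arm genes and 1 of 16 ER-arm genes with a promoter in the RefSeq table, and in 3.97% of all 32851 promoter windows. Member counts are by gene, with 41 windows for 36 genes, while the share is by window. Of the 5 genes with a match, Chac1, Atf3, Trib3 and Herpud1 were at least 2-fold lower with adenosine and Asns was not. Over all measured genes 10.1% were lower. With the floor at the 67th percentile Chac1 stood at -0.35 and Trib3 was not measured. Whether a match goes with a lower signal was not tested. A match is a description of the letters and not evidence of binding.

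Atf4 itself, the central factor of the arm, had signals of 1849 and 860.0, 2.15-fold lower by its brightest probe set. A second probe set read 932 and 112.5, a log2 ratio of -3.05, and another stayed under the floor throughout, at 0.6 and 0.8. The measured probe sets therefore give the same direction but differ in size by more than the scatter between probe sets. The more extreme one is of a type that can share sequence with other transcripts. Ddit3, which encodes CHOP, the factor linked to cell death under lasting stress, went from 209 to 75.3, 2.78-fold lower, on its only probe set. Ppp1r15a encodes the subunit that guides a phosphatase back to eIF2alpha and so ends the response. It read 182 and 88.8, a log2 ratio of -1.04, again from a single probe set. Its promoter holds TGACGTCA, the cAMP response element, 12 bases upstream of the start (tccggTGACGTCAgcaca). Among the 36 members with a promoter this was the only match to that motif, which occurs in 1.79% of all windows.

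Regulators on the other side were fewer. Ddit4, which encodes the mTORC1 inhibitor REDD1, read 122.5 with IFN-gamma and 476 with adenosine, 3.88-fold higher. Its deposited adenosine intensity, 169, was also above the IFN-gamma value, which was true of only 3 measured members by their brightest probe sets, the others being Bcat2 and Ern1. Cebpb, a C/EBP factor that drives inflammatory genes in macrophages and pairs with ATF4, read 1087 and 2084.5, 1.92-fold higher, and by its second probe set 449.8 and 1406, 3.13-fold higher. Atf5, an ATF4-related factor, read 156 and 309.8, a log2 ratio of 0.99. As deposited, Atf5 and the brightest Cebpb probe set stood at -0.50 and -0.56, below 0 but above the median of all genes, -1.50. Cebpg, another C/EBP partner of ATF4, had log2 ratios of 0.23 and -0.55 by its measured probe sets, and Eif4ebp1, a brake on cap-dependent translation, -0.91 and 0.04. For these last genes the probe sets of the same transcript straddled 0, so no direction can be given.

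**Figure D2:**
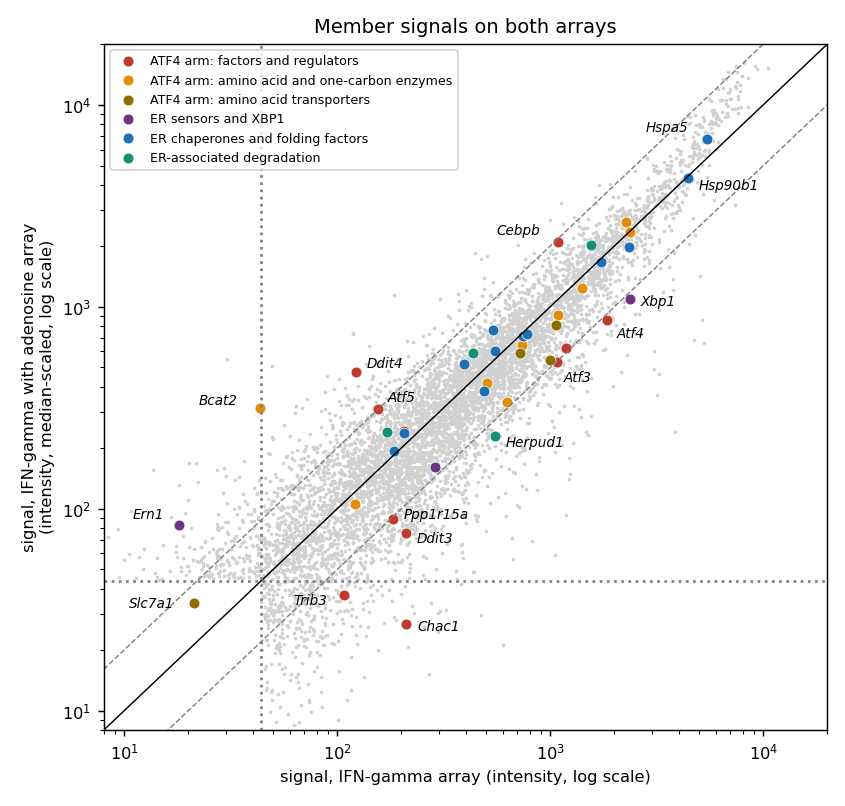
Signal of each member on the IFN-gamma array (x axis) and the adenosine array (y axis, scaled by 2.82), as intensity on log axes, over all measured genes in grey; the solid line marks equal signals, dashed lines 2-fold differences and dotted lines the floor of 44.0. Chac1 and Trib3 fall below the floor only with adenosine, Bcat2 and Ern1 only with IFN-gamma, and Hspa5 and Hsp90b1 sit on the diagonal at the bright end.

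Among 9 amino acid and one-carbon enzymes of the ATF4 arm, none was 2-fold lower and 1 (Bcat2) was 2-fold higher, beside 10.1% and 4.52% of all measured genes. Their median log2 ratio was -0.19, against -0.08 for all measured genes. Asns, the asparagine synthetase gene and a textbook ATF4 target, read 1407 and 1235.5, a log2 ratio of -0.19, and its other probe set gave -0.30. It is shown because it carries the ATF4-type element close to its start (capitals, here on the gene's own strand) without the lower signal seen for Chac1 and Atf3.

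Asns promoter (GRCm38.p6, chr6:7693210-7693459, minus strand): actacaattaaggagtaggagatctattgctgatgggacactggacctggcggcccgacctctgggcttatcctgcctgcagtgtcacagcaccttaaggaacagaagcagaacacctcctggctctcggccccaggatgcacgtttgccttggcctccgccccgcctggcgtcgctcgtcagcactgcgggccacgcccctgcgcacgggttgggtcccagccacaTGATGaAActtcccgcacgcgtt

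In the serine branch, Phgdh, the first enzyme, had a log2 ratio of 0.22 (2255 and 2626), with other measured probe sets at 0.27 and 0.33. Psat1, the second enzyme, read 2371 and 2332, a log2 ratio of -0.02, and its other probe set gave -0.41. Psph, the last enzyme, was the lowest of the group, at 625 and 338 (log2 ratio -0.89). The 3 enzymes of the branch thus lay on both sides of 0. The mitochondrial one-carbon enzymes Shmt2 and Mthfd2 had log2 ratios of -0.26 and -0.19. Their other probe sets lay at 0.32, 0.08 and 0.60 for Shmt2 and at -1.29 for Mthfd2. Cth, which makes cysteine from cystathionine, read 120 and 105 (log2 ratio -0.20). The branched-chain aminotransferases differed: cytosolic Bcat1 read 503 and 419, and mitochondrial Bcat2 read 43.2, just below the floor, and 314, at least 7.14-fold higher. Bcat2 rests on 1 probe set, and with the floor at the 67th percentile its log2 ratio was 0.93.

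The 3 measured amino acid transporters lay below the array median. Slc7a5 and Slc3a2, the light and heavy chains of the large neutral amino acid exchanger, read 724 and 592.5 and 1061 and 808, log2 ratios of -0.29 and -0.39. Slc1a5, the glutamine transporter gene, read 999.5 and 543 (log2 ratio -0.88). Slc7a1, the cationic amino acid transporter gene, did not reach the floor on either array, at 21.2 and 34.1. No transporter reached 2-fold.

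Of the ER stress sensors and their main effector, Xbp1 was lower by every measured probe set. Xbp1 encodes the factor that IRE1 activates by splicing its mRNA. Its signals were 2364 and 1094, 2.16-fold lower, by the brightest probe set, 1653 and 526, 3.14-fold lower, by the next, and 595 and 236, 2.52-fold lower, by another. Its remaining probe set stayed under the floor on each array. By their names the 3 measured probe sets each match several transcripts, which may be of the same gene. Their signals do not separate spliced from unspliced mRNA. Atf6, the membrane-bound sensor and factor, read 289 and 160, a log2 ratio of -0.85. Ern1, which encodes IRE1, read 18.1 and 83.4, at least 1.90-fold higher, and its other probe sets were under the floor. Its log2 ratio ran from 0.19 with loess scaling to 2.20 with the floor at the 33rd percentile.

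The ER chaperones stayed close to the array median by their brightest probe sets. Their median log2 ratio was 0.02, with 6 genes above and 6 below 0. Hspa5, the major ER chaperone BiP, read 5464 with IFN-gamma and 6789 with adenosine (log2 ratio 0.31), and its second probe set read 3589 and 2793 (-0.36). Hsp90b1, the ER member of the HSP90 family, read 4444 and 4360.4 (-0.03), with its second probe set at 0.33. Bright genes tended to lie above 0 on this scale, and with loess scaling, which removes that trend, the brightest probe sets gave -0.08 for Hspa5 and -0.32 for Hsp90b1. Neither gene differed between the arrays by more than the scatter between probe sets. Their promoters are shown because they carry the ER stress response element ERSE, the sequence recognized by ATF6 with NF-Y and by XBP1. Capitals mark its fixed letters, and in Hspa5 also a match to the UPRE core TGACGTG, 157 bases upstream. That core was found in 1 of 16 ER-arm genes, 0 of 20 ATF4-arm genes and 2.01% of all windows.

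Hspa5 promoter (GRCm38.p6, chr2:34771840-34772089, plus strand): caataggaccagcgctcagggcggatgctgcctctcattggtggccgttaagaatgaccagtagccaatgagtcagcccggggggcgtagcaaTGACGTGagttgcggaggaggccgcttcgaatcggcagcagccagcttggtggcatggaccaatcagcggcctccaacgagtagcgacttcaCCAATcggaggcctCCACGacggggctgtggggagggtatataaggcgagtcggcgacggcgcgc
Hsp90b1 promoter (GRCm38.p6, chr10:86705445-86705694, minus strand): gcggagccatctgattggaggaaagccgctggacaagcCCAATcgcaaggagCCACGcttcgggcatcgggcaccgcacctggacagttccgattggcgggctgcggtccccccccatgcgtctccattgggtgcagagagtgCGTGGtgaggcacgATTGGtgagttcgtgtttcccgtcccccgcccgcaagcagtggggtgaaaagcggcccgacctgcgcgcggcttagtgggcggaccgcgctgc

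The ERSE searched, CCAAT and CCACG with 9 bases between them on either strand, was found in 6 of the 16 ER-arm genes with a promoter, in 0 of 20 ATF4-arm genes and in 0.119% of all 32851 windows. These counts are again by gene and the share by window, and enrichment was not tested. The 6 genes are Hspa5, Hsp90b1, Dnajc3, Pdia6, Creld2 and Syvn1, and Hsp90b1 has a pair of sites. With 5 flanking bases and in the orientation of the motif, the sites are as follows, shown because they are what these genes share in sequence.

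Hspa5, 65 bases upstream: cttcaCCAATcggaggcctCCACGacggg
Hsp90b1, 212 bases upstream: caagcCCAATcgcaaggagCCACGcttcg
Hsp90b1, 107 bases upstream: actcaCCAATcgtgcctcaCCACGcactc
Dnajc3, 105 bases upstream: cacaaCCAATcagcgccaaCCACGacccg
Pdia6, 98 bases upstream: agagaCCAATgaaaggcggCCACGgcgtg
Creld2, 126 bases upstream: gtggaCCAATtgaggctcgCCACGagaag
Syvn1, 44 bases upstream: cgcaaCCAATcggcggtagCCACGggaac

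By their brightest probe sets, all 6 of these genes had log2 ratios between -0.09 and 0.48. Dnajc3, a co-chaperone that also inhibits eIF2alpha kinases, had a log2 ratio of 0.14, the disulfide isomerase gene Pdia6 -0.05, and Creld2, a secreted stress protein gene, -0.09. Other measured probe sets of Dnajc3 gave -0.84, 0.29 and -0.02. The largest positive values in the group belonged to Sdf2l1, an ER-resident partner of DNAJ chaperones (539 and 766, log2 ratio 0.51), and Hyou1, the large HSP70-type chaperone GRP170 (393 and 523, 0.41). Further probe sets of Hyou1 gave 0.95 (181.5 and 350) and 1.48 (83.6 and 234), so that 1 of 3 was past 2-fold. As deposited, the Hyou1 values were -1.08, -0.55 and -0.01, below 0 but above the median of all genes, -1.50. The DNAJ co-chaperones Dnajb9 and Dnajb11 had log2 ratios of 0.08 and -0.06, the disulfide isomerase Pdia4 0.20, the reductase Dnajc10 -0.36 and the secreted factor Manf -0.25.

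Among genes of ER-associated degradation, Herpud1 stood apart from the other 3. Herpud1, which organizes the degradation complex at the ER membrane, read 548 and 229, 2.39-fold lower, and by its second probe set 329 and 193, 1.71-fold lower. Sel1l and Syvn1, the adaptor and ubiquitin ligase of that complex, had log2 ratios of 0.45 and 0.48. Edem1, a mannosidase-like protein that hands over misfolded glycoproteins, had 0.38. Other probe sets of Sel1l lay at 0.31, 0.63 and -1.06 and that of Edem1 at -0.95, so their direction is not settled. The Herpud1 promoter is shown because it was the only one among members with matches to both arms' elements, the ATF4-type element 112 bases upstream (opposite strand) and ERSE-II (ATTGG and CCACG with 1 base between them) 52 bases upstream. ERSE-II was found in 0.0365% of all windows and, among members, also in Dnajb11, from base 8 of the transcript. ERSE-II and ERSE share the letters CCACG, and their other parts, ATTGG and CCAAT, are each other's reverse complement.

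Herpud1 promoter (GRCm38.p6, chr8:94386179-94386428, plus strand): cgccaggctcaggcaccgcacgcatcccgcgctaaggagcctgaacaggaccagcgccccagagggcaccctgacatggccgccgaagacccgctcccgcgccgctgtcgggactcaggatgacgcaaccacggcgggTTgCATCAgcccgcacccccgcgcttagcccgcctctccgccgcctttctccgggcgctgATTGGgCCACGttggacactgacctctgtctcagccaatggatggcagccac

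Set side by side, the factors and regulators of the ATF4 arm had a median log2 ratio of -1.02 and the chaperones 0.02, a difference of -1.04. Of the 11 factors and regulators, 7 lay below the lowest chaperone (-0.36) and 3 above the highest (0.51), by brightest probe sets. Among the 7 was Eif4ebp1, whose other measured probe set stood at 0.04. Some further chaperone probe sets lay outside these limits, such as Dnajc3 at -0.84 and Hyou1 at 0.95 and 1.48. With the floor at the 67th percentile the median of the factors and regulators was -0.24, and that of the chaperones remained 0.02. The remaining 12 measured genes of the ATF4 arm had a median of -0.23, with 0 lower and 1 higher at 2-fold (10.1% and 4.52% of all measured genes). With 1 array per treatment these differences have no test.

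**Figure D3:**
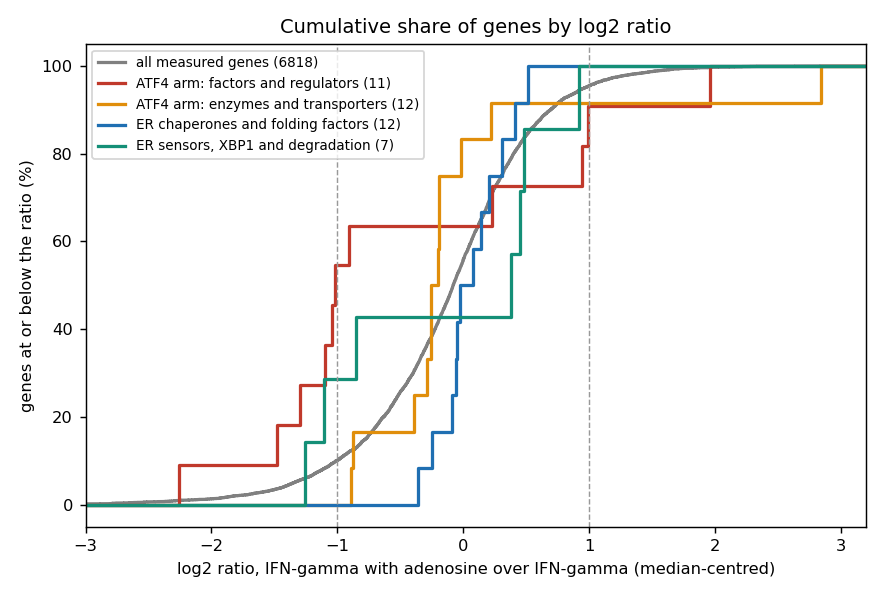
Cumulative share of genes (y axis, %) at or below each log2 ratio (x axis, median-centred, IFN-gamma with adenosine over IFN-gamma) for all 6818 measured genes and for the role groups, with group sizes in the key; dashed lines mark 2-fold. The curve of the 11 ATF4-arm factors and regulators passes 54.5% at 2-fold lower, where that of all genes is at 10.1% and that of the 12 chaperones at 0%.

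Agreement between probe sets limits how far single members can be read. Of 20 members with at least 2 measured probe sets, all probe sets of 11 had the same sign and those of 9 did not (Bcat1, Cebpg, Dnajc3, Edem1, Eif4ebp1, Hsp90b1, Hspa5, Sel1l and Shmt2). By their brightest probe sets none of these 9 was 2-fold apart, though 1 further probe set of Sel1l stood at -1.06. Among the 10 members counted as 2-fold lower or higher, Atf4, Trib3, Xbp1 and Herpud1 had further measured probe sets, and all of those were lower too. Chac1, Ddit3, Atf3, Ppp1r15a, Ddit4 and Bcat2 rest on 1 probe set each.

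Scaling moved the members together. Removing only the shift of the spiked-in controls (-0.53) put the median of all measured genes at -1.01, Atf4 at -2.07, Hsp90b1 at -0.99 and Ddit4 at 0.99. With the values as deposited the same medians and genes stood at -1.50, -2.60, -1.52 and 0.46. Relative to the median of all genes, the ATF4-arm regulators named as lower stayed below it and Hsp90b1 stayed near it under each of the 6 scalings. Apart from the floor, only loess and quantile scaling could change this, since the others shift all ratios by a constant.

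**Figure D4:**
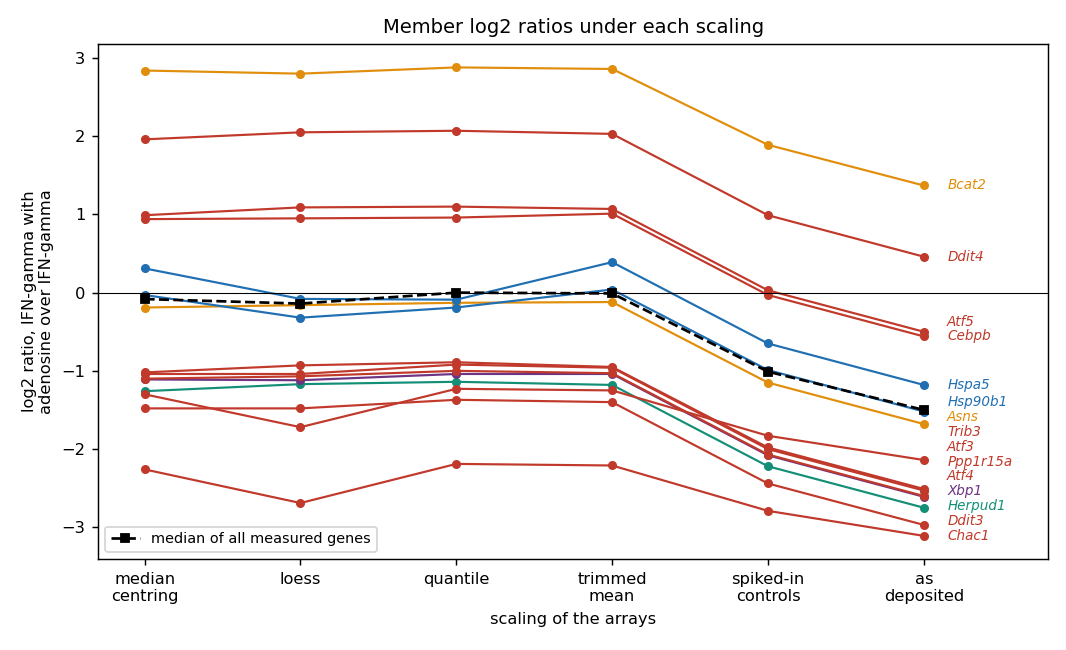
Log2 ratio of IFN-gamma with adenosine over IFN-gamma (y axis) for 15 members under 6 scalings of the arrays (x axis), coloured by role as in the plot of ratios by probe set; the dashed black line is the median of all measured genes under each. Chac1 lies lowest under each scaling and Bcat2 highest, and the whole set shifts down with spiked-in scaling and in the values as deposited, where the median of all genes is -1.50.

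Other genes of these pathways, from lists of 66 genes of which 56 were measured, held 8 that were lower and 5 that were higher by 2-fold or more (14.3% and 8.93%, beside 10.1% and 4.52% of all measured genes). Among the eIF2alpha kinases, Eif2ak2, which encodes the interferon-inducible kinase PKR, read 477 and 143, 3.33-fold lower, with a second probe set at -0.78. Eif2ak3, the PERK gene, read 102 with adenosine, a log2 ratio of 0.03. Eif2ak4, the GCN2 gene, read 85.5 and 1.4, at least 1.94-fold lower, with the adenosine signal below the floor. Eif2ak1, the heme-regulated kinase gene, was higher, at 215 and 474 (1.14, second probe set 0.36). So was Impact, an inhibitor of the kinase GCN2, at 91.4 and 188.6 on its only probe set (log2 ratio 1.04). As deposited, Eif2ak1 and Impact stood at -0.35 and -0.45, below 0 but above the median of all genes, -1.50. Ppp1r15b, the constitutive partner of the eIF2alpha phosphatase, was lower by its brightest probe set (-1.06) but higher by the other (1.05).

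Further genes tied to ATF4 also lay on both sides. Lower were Jdp2, an AP-1 repressor (log2 ratio -1.36), Nupr1, a stress-induced chromatin protein (-1.05 and -1.10 by its probe sets), Cebpd, a C/EBP factor (-1.05), and Nfe2l2, the antioxidant factor NRF2 (-1.02). Higher were Sesn2, a leucine-responsive mTORC1 inhibitor (2.23, other probe set 0.92), the cystine transporter gene Slc7a11 (2.00, from a signal of 47.1) and the growth factor gene Vegfa (1.97, other probe set -0.12). Of 11 measured aminoacyl-tRNA synthetases, 1 (9.09%) was 2-fold lower and 0 higher, beside 10.1% and 4.52% of all measured genes. The lower one was Wars, the tryptophanyl-tRNA synthetase gene, known as an interferon-induced gene, at 1134 and 488 (log2 ratio -1.22, other probe sets from -1.43 to -0.47). The other 10 lay between -0.68 and 0.36.

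Outside the listed members, 14 ER folding genes were measured. Of these, 1 (7.14%) was 2-fold lower, the ER ATPase gene Tor1a (-1.05), and 0 were higher, beside 10.1% and 4.52% of all measured genes. The lectin chaperone genes Calr and Canx had log2 ratios of 0.61 (3640.0 and 5564) and 0.02 (3425 and 3479). Bright folding genes lay above 0 here, with the disulfide isomerase genes Pdia3 and P4hb at 0.94 and 0.75, which became 0.68 and 0.39 with loess scaling. As deposited, Calr, Pdia3 and P4hb stood at -0.88, -0.56 and -0.75, below 0 but above the median of all genes, -1.50. Among 14 measured genes of translocation, degradation and trafficking, none was 2-fold apart in either direction.

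**Figure D5:**
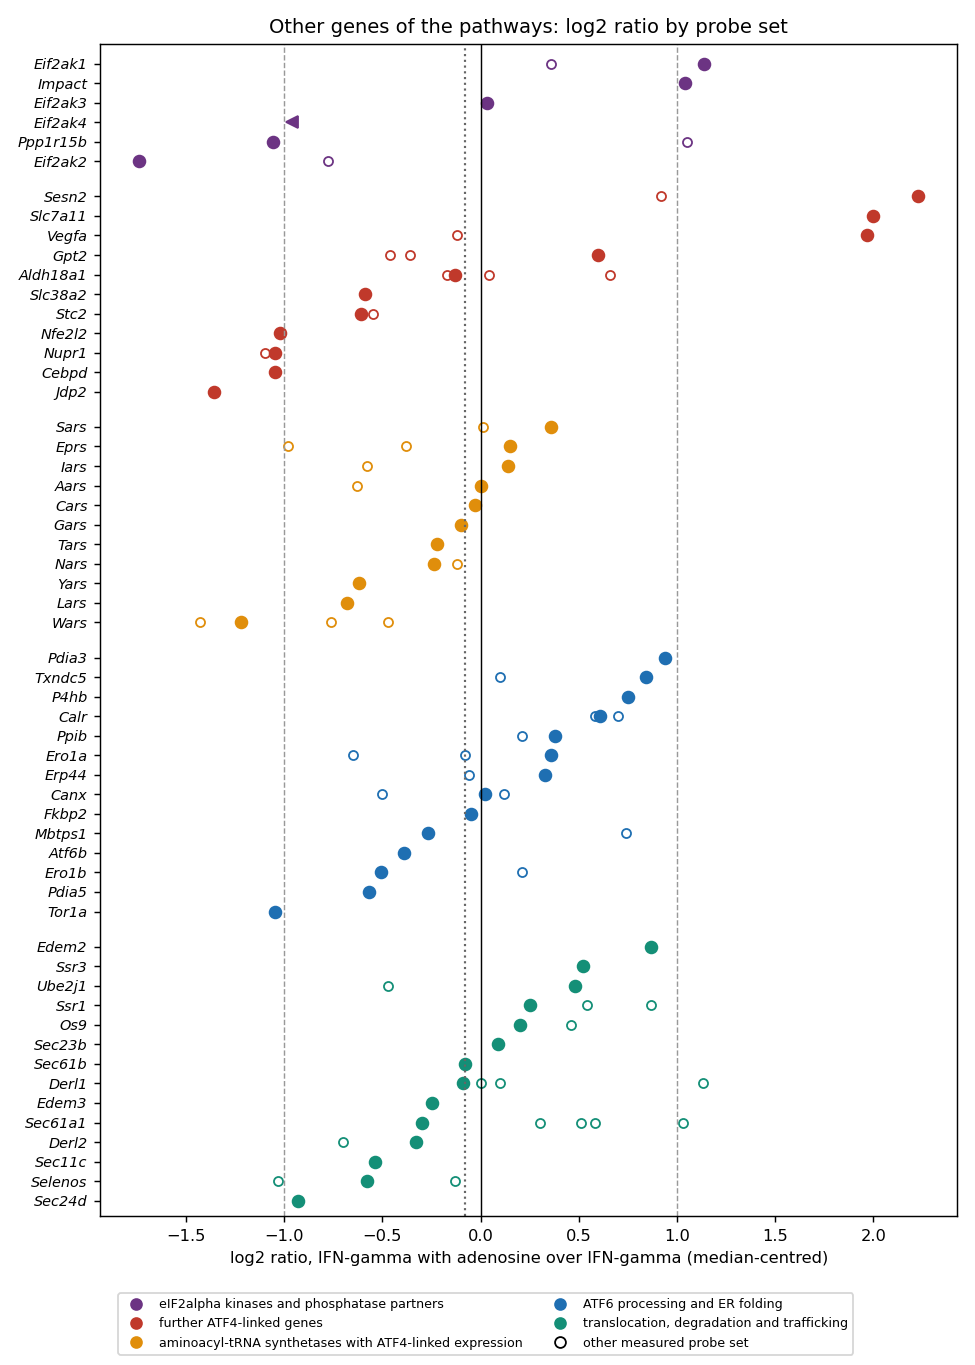
Log2 ratio of IFN-gamma with adenosine over IFN-gamma (x axis, median-centred) for the 56 measured genes of the other pathway lists (rows), drawn as in the plot of members: filled symbols are the brightest probe sets, open circles the others, dashed lines 2-fold. Eif2ak2 is lowest at -1.74 and Sesn2 highest at 2.23, and most synthetase and ER folding genes lie within 2-fold.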

How the data were processed

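The authors deposited 1 linear intensity per probe set and array, for 22690 probe sets on 2 arrays. Per the submitters' processing notes GCOS was used, while its signal algorithm is not given in the sources used here, nor is a scaling target. RNA of 2 experiments was pooled per treatment, per the series' design text. The 64 control probe sets were left out of gene results, and 20380 of 22626 gene probe sets carried a single symbol, updated through Entrez identifiers to RefSeq. The 2 Phgdh probe sets with several symbols were not used.

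Ratios were median-centred over probe sets above the deposited 50th percentile (24.5) on both arrays. Each gene was read from its brightest probe set by mean scaled signal. A gene counted as measured if its brighter array reached the floor of 44.0. Genes were counted by size at 2-fold. All members were accounted for, and other pathway genes past 2-fold were named, with Eif2ak3, Eif2ak2, Calr and Canx named whatever their value. The members and lists were chosen with earlier results of these data known. Promoters are from RefSeq (GRCm38.p6, 36 of 44 members matched), searched for TGATGNAA, the ERSE, ERSE-II, TGACGTG and TGACGTCA, the last 2 sharing 6 letters. Protein sequences were not used here. The calculation was tested on simulated data with less scatter than seen here, and with changes placed only in bright genes. It therefore does not check the calls of dimmer members. Python 3.11.15, numpy 2.4.6, pandas 2.3.3 and statsmodels 0.14.6 (loess) were used. Alternatives were 5 other scalings, a pseudocount of 16, floors at the 33rd and 67th percentiles, the mean of all probe sets, leaving out shared probe sets, and thresholds of 1.5-fold and 3-fold. Shared probe sets were those with names ending in _s_at, _x_at or _a_at, which match several transcripts, at times of the same gene. Arrays give no read depth, and their number limits the precision.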

Additional observations from a re-analysis of the deposited data

How the results depend on the processing

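No paired analysis was possible because a single array stands for each group, which also leaves no replicate to drop. Scaling decided most counts. As deposited, 19 ATF4-arm genes were lower and 1 higher, 17 ER-arm genes and 11 chaperones were lower, and 0 factors and regulators were higher. With spiked-in scaling these counts were 16, 1, 8, 5 and 0. Medians as deposited and with spiked-in scaling were -1.76 and -1.23 for the ATF4 arm, -2.41 and -1.88 for its factors and regulators, -1.68 and -1.15 for its enzymes, -1.89 and -1.36 for its transporters, -1.42 and -0.89 for the ER arm, -2.34 and -1.81 for sensors and XBP1, -1.47 and -0.94 for chaperones and -1.15 and -0.62 for degradation. Trimmed mean scaling gave 4 higher ATF4-arm genes, 3 of them factors or regulators, and quantile scaling, loess scaling and the mean of all probe sets gave 2 higher factors and regulators each.

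With the floor at the 67th percentile, 2 ATF4-arm genes were lower, both factors or regulators, and 1 was higher. Of all genes measured then, 6.48% were lower and 2.63% higher. The median of factors and regulators was -0.24. The floor at the 67th percentile lies above both signals of Trib3, and it put Chac1, Ddit3 and Ppp1r15a at -0.35, -0.34 and -0.14. The floor at the 33rd percentile and the pseudocount each gave 1 higher ER-arm gene. Without shared probe sets 1 ATF4-arm gene was higher, 1 ER-arm gene was lower, and the median of sensors and XBP1 was 0.04, since Xbp1 was then not measured. At 1.5-fold 4 ATF4-arm genes, 3 of them factors or regulators, and 1 ER-arm gene were higher. At 3-fold 1 ATF4-arm gene, a factor or regulator, and 0 ER-arm genes were lower. No called member changed sign where it was still measured. Much of this was fixed in advance, since a changed floor, threshold or pseudocount cannot turn a sign. Trib3 was not measured with the floor at the 67th percentile, nor were Trib3, Xbp1 and Bcat2 without shared probe sets.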
